A study of Homo sapiens and Mus musculus with 213 samples.

Results

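Genes of voltage-gated sodium and calcium channels were followed in HEK293T, an immortalized line from human embryonic kidney, and in a pair of lines edited from it. Members were taken by name: the protein-coding genes whose symbols are SCN, a number and A or B, or begin with CACNA, CACNB or CACNG. Of the genes found, 38 of the 58336 identifiers listed are described, of which 25 had a mean of at least 10 normalized counts over the 9 libraries and were tested. Poly(A) RNA was sequenced in 3 libraries of each line. WT is the parental HEK293T. MUT, labelled HEK293T_MutMYCG4, carries point mutations in the G-runs of the G-quadruplex (G4, a 4-stranded fold of guanine-rich DNA) upstream of MYC that prevent its folding. SWP carries a different G4-forming motif in its place. The labels give the same culture conditions for all of these lines and no treatment. Both edited lines come from sorted single cells chosen as homozygous for the edit. The sources used here do not say which clone, or how many, each library came from, so an edit and a clone cannot be told apart. The titles number the libraries as Bio 1 to 3 without naming separate cultures, and p-values measure the spread between these libraries. The names of the WT libraries carry a sequencing pool that those of MUT and SWP do not, so pool and line cannot be told apart in comparisons with WT.

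Voltage-gated sodium channels carry the fast upstroke of the action potential through one large alpha subunit, and smaller beta subunits tune gating and bind adhesion partners. Voltage-gated calcium channels turn depolarization into calcium entry for secretion, contraction and transcription. Their alpha1 subunit forms the pore, alpha2delta and beta subunits bring high-voltage channels to the membrane, and most gamma family proteins are better known as partners of AMPA glutamate receptors. These genes are best known from neurons, muscle and endocrine cells. HEK293T is widely used to express them from plasmids.

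The libraries held 65024354 to 98497026 reads on genes. MYC had 20020.3, 28396 and 21580.1 in WT, 10693, 11176 and 12399.8 in MUT and 14480.1, 24743 and 25245 in SWP, and the log2 fold change was -1.02 ± 0.19 (adjusted p = 0.00182) in MUT against WT and -0.15 ± 0.19 (adjusted p = 0.712) in SWP against WT. REST, the repressor that keeps many neuronal genes silent outside neurons, had means of 2935 ± 217 in WT, 3086 ± 108 in MUT and 2873 ± 193 in SWP (SD, n = 3), with adjusted p = 0.481 and 0.866 against WT. The first principal component, with 58.6% of the variance, set MUT apart from WT and SWP. The second, with 18.5%, set WT (20.9 to 44.6) apart from SWP (-40.0 to -17.8). SWP replicate 1 was the lowest SWP library for 15 of the 25 tested channel genes.

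In MUT against WT, 14 of the 25 tested channel genes were higher, 2 were lower and 9 were not called. Genes were called where limma gave an adjusted p below 0.05 and the log2 fold change passed 0.5 in either direction. Log2 fold changes are given ± SE and are on the log2(normalized count + 1) scale, and positions are on hg38. Of all 20884 genes tested, 11.3% were called higher and 10.1% lower in this comparison. The median log2 fold change of the channel genes was 0.84, beside -0.00338 over all genes. The rule for members uses names only, but this family was chosen with earlier results of these data known. The shares over all genes are therefore given for description and not as a test of the family. CACNG5 had means of 11.9 in WT and 6.22 in SWP, or 9.04 over these lines. It reached the minimum only with MUT, the line where it was highest, so its difference was built into the filter. Without CACNG5, 13 of 24 were higher and 2 lower in MUT against WT, with a median of 0.83, and 13 were higher in MUT against SWP. In SWP against WT, 3 channel genes were higher (SCN9A, SCN3B and CACNA2D3), 3 were lower (SCN2B, CACNA1H and CACNG8) and 19 were not called. The background was 2.15% higher and 2.98% lower. The median was -0.19 beside -0.0554 over all genes, and it was -0.099 without SWP replicate 1. With the replicate number as a block, 4 channel genes were lower in SWP than in WT, CACNA1B being added. MUT and SWP were also compared directly, since both comparisons above share the WT libraries. There, 14 channel genes were higher in MUT, 1 was lower (SCN9A) and 10 were not called, with backgrounds of 12.3% and 8.31%. The median was 0.87 beside 0.0439 over all genes, and 0.67 without SWP replicate 1. In bulk RNA, more cells with a transcript and more transcript per cell cannot be told apart.

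Guanine-rich runs are common in promoters, and MYC binds the E-box CACGTG, so the promoter windows of the members are given for reference. RefSeq windows (GRCh38.p14, 250 bases before to 50 after the start) were matched for 26 of the 38 genes, 40 windows in all. Those not matched were CACNA1G, CACNA1H, CACNA2D4, CACNG1, CACNG2, CACNG4, CACNG5, CACNG7, CACNG8, SCN3A, SCN3B and SCN4A. The E-box, which reads the same on both strands, stood in 2 of the 40 windows (5.0%), beside 7.26% of all windows. A G4 motif, meaning 4 runs of at least 3 G with loops of 1 to 7 bases on either strand, stood in 18 of the 40 windows (45.0%), beside 25.0% of all windows and 34.1% of those of tested genes. By gene, 5 of the 9 with a window among those called higher in MUT against WT held a G4 motif, and so did 7 of the 7 not called and the 1 called lower. Together, 13 of the 17 tested members with a window held one. Genes have from 1 window to 5 (CACNB4), so these counts by gene are not comparable with the shares of windows above. The left part of RE1, the element REST binds (TTCAGCACC, either strand), stood in the window of CACNG3 only (2.5%, beside 0.376% of all). A match is a description of letters and not a site of binding or folding. The stretches below are written along the gene, with the motif in capitals. CACNA1B and CACNA1I are shown as the members with an E-box, SCN9A and CACNA2D3 as members higher in both edited lines, and SCN8A and CACNB3 as members not called in any comparison. Runs of C mark a G4 motif on the opposite strand.
CACNA1B, chr9:137877725-137877754, gene on the plus strand: gccgggccccgcCACGTGaccggcccctta
CACNA1I, chr22:39570692-39570721, gene on the plus strand: gcctgtccccacCACGTGccaccctctctg
SCN9A, chr2:166376052-166376081, gene on the minus strand: ggagagaGGGAGGGAGGGAGGGagcaaggg
CACNA2D3, chr3:54122458-54122487, gene on the plus strand: tcctCCCCCGCCCGCCTCCCTCCCCacctc
SCN8A, chr12:51591111-51591140, gene on the plus strand: gaGGGGTAGGCGCGGGGGCGGGGCGGGcgg
CACNB3, chr12:48815483-48815512, gene on the plus strand: aaggaaGGGAGAGGGAGGGAGGGaggaggg
The SCN9A and CACNB3 stretches hold short loops between G-runs. A link between such motifs and the calls was not tested.

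Of the 6 tested pore-forming sodium channel genes described, 4 were higher in MUT than in WT, and 1 was higher in SWP. SCN2A (ENSG00000136531, chr2:165194993-165392310 on the plus strand), a channel of the axon initial segment in the brain, had normalized counts of 115, 94.3 and 98.2 in WT, 462, 512 and 461 in MUT and 120.3, 118 and 112 in SWP. Every MUT library was above every other library. The log2 fold change of SCN2A was 2.22 ± 0.12 (adjusted p = 5.71e-07) in MUT against WT and 2.02 ± 0.12 (adjusted p = 5.49e-07) in MUT against SWP, while SWP against WT gave 0.19 ± 0.12 (adjusted p = 0.391). SCN3A, whose expression in the brain is strongest before birth, had 13.3, 7.86 and 15.4 in WT, 56.4, 64.2 and 48.7 in MUT and 17.2, 8.91 and 5.77 in SWP. Its log2 fold change was 2.16 ± 0.37 (adjusted p = 0.000899) in MUT against WT and 2.42 ± 0.37 (adjusted p = 0.00042) in MUT against SWP, and WT and SWP overlapped. SCN11A, which carries a persistent current in pain-sensing neurons, had 11.3, 18.0 and 6.74 in WT, 37.0, 37.9 and 36.0 in MUT and 12.6, 10.4 and 15.0 in SWP. Again the MUT libraries stood above the rest, with 1.64 ± 0.32 (adjusted p = 0.00208) against WT and 1.49 ± 0.32 (adjusted p = 0.00368) against SWP. SCN11A shares 61 exon bases (0.487%) with WDR48 on the other strand, which had 7451, 6847 and 6883 normalized counts in WT, MUT and SWP. The part of WDR48 in the count of SCN11A was not tested.

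SCN9A (ENSG00000169432, chr2:166195185-166376001 on the minus strand), a channel of pain-sensing and sympathetic neurons, followed another order. Its normalized counts were 208, 268 and 209 in WT, 433, 535 and 584 in MUT and 671, 753 and 803 in SWP, with no overlap between lines. Its log2 fold change was 1.17 ± 0.14 (adjusted p = 9.37e-05) in MUT against WT, 1.70 ± 0.14 (adjusted p = 2.38e-05) in SWP against WT and -0.53 ± 0.14 (adjusted p = 0.0126) in MUT against SWP. The last call was lost without MUT replicate 1 (adjusted p = 0.0601) or without SWP replicate 3 (adjusted p = 0.0513). SCN4A, the skeletal muscle channel, and SCN8A, the channel of nodes of Ranvier, were not called in any comparison. SCN4A had means of 237 ± 69.7, 225 ± 12.1 and 205 ± 68.0 in WT, MUT and SWP, and SCN8A had 400.0 ± 56.7, 483 ± 21.2 and 419 ± 18.7 (SD, n = 3).

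Levels were compared between genes per kb of exon, over all annotated exon bases of each gene, whichever of them are used. In WT, SCN4A had 28.8 ± 8.46 normalized counts per kb, SCN8A 21.0 ± 2.98 and SCN9A 16.4 ± 2.48 (SD, n = 3). The level of SCN2A in WT was 4.25 ± 0.452 per kb, and those of SCN3A and SCN11A were 1.05 ± 0.337 and 0.958 ± 0.451. In MUT, SCN9A had 37.1 ± 5.52, SCN4A 27.2 ± 1.46, SCN8A 25.4 ± 1.12 and SCN2A 19.9 ± 1.2 per kb. In SWP, SCN9A had 53.2 ± 4.75 per kb, beside 24.9 ± 8.24 for SCN4A and 22.0 ± 0.983 for SCN8A.

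The sodium channel beta genes SCN2B, SCN3B and SCN4B were higher in MUT than in WT. SCN3B (ENSG00000166257, chr11:123629187-123655244 on the minus strand), a beta subunit of brain and heart, had 40.0, 40.4 and 26.0 in WT, 498, 526 and 555 in MUT and 97.4, 64.6 and 71.5 in SWP. The lines did not overlap and stood in the order WT, SWP, MUT. Its log2 fold change, the largest among the tested members in MUT against WT, was 3.88 ± 0.20 (adjusted p = 3.64e-07), with 1.12 ± 0.20 (adjusted p = 0.00527) in SWP against WT and 2.76 ± 0.20 (adjusted p = 2.3e-06) in MUT against SWP. SCN2B (ENSG00000149575, chr11:118162806-118176639 on the minus strand), which links to alpha subunits by a disulfide bond, had 22.6, 19.1 and 25.0 in WT, 60.1, 80.7 and 77.0 in MUT and 10.3, 6.69 and 8.07 in SWP. Here the edited lines went opposite ways from WT. The log2 fold change of SCN2B was 1.66 ± 0.24 (adjusted p = 0.000296) in MUT and -1.32 ± 0.24 (adjusted p = 0.00494) in SWP, and MUT against SWP gave 2.98 ± 0.24 (adjusted p = 3.96e-06).

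SCN4B, which lies beside SCN2B and is known for its part in resurgent current, had 147, 141 and 155 in WT, 257, 333 and 299 in MUT and 69.9, 137 and 126 in SWP. Its rise in MUT was 0.99 ± 0.22 (adjusted p = 0.00466) against WT and 1.46 ± 0.22 (adjusted p = 0.00041) against SWP, and SWP against WT gave -0.47 ± 0.22 (adjusted p = 0.229).

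Of the high-voltage calcium channel pores, 3 of 7 were tested and 2 were higher in MUT. CACNA1B (ENSG00000148408, chr9:137877782-138124624 on the plus strand), the N-type channel of presynaptic terminals, had 68.7, 70.7 and 67.4 in WT, 219, 244 and 223 in MUT and 60.7, 43.8 and 35.7 in SWP. Its log2 fold change was 1.71 ± 0.19 (adjusted p = 4.63e-05) in MUT against WT and 2.30 ± 0.19 (adjusted p = 4.52e-06) in MUT against SWP. SWP lay below WT in every library, at -0.58 ± 0.19 (adjusted p = 0.075), and with the replicate number as a block this comparison was called, at -0.58 with adjusted p = 0.0325. Without SWP replicate 1 it was called as well, at -0.78 with adjusted p = 0.00851. CACNA1C, the L-type channel of heart and smooth muscle, had 144, 163 and 113 in WT, 271, 281 and 252 in MUT and 88.2, 111 and 111 in SWP. MUT was again highest, at 0.95 ± 0.16 (adjusted p = 0.000861) against WT and 1.37 ± 0.16 (adjusted p = 6.94e-05) against SWP. CACNA1D, the L-type channel of pacemaking and endocrine cells, had means of 127 ± 27, 109 ± 6.06 and 95.1 ± 12.1 in WT, MUT and SWP (SD, n = 3) and was not called. It shares 7.29% of its exon bases with CHDH on the other strand, which had 3847 normalized counts in WT, and use of strand in counting is not stated in the sources used here.

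T-type channels open near the resting potential and need no auxiliary subunit to reach the membrane. CACNA1H (ENSG00000196557, chr16:1153106-1221771 on the plus strand) had the highest count of the pore genes, also per kb of exon, with 3070.0, 3567 and 2927 in WT, 3262, 3289.7 and 3455 in MUT and 1557, 2088 and 2102 in SWP. All SWP libraries were below all others. Its log2 fold change was -0.74 ± 0.12 (adjusted p = 0.00223) in SWP against WT and 0.81 ± 0.12 (adjusted p = 0.00028) in MUT against SWP, while MUT against WT gave 0.07 ± 0.12 (adjusted p = 0.668). CACNA1G, known from thalamic neurons and the heart's conduction system, had 55.4, 68.5 and 56.8 in WT, 217, 246 and 207 in MUT and 45.8, 46.1 and 38.1 in SWP. It rose in MUT, at 1.88 ± 0.16 (adjusted p = 8.83e-06) against WT and 2.34 ± 0.16 (adjusted p = 1.26e-06) against SWP. SWP against WT was not called for CACNA1G, at -0.46 ± 0.16 (adjusted p = 0.096). CACNA1I, mainly a brain channel, had 8.20 to 14.4 in WT, 11.7 to 19.4 in MUT and 4.58 to 11.5 in SWP and was not called.

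Per kb of exon, CACNA1H held 93.2% ± 0.122 of the summed calcium channel alpha1 level in WT, 85.3% ± 1.03 in MUT and 91.9% ± 1.19 in SWP (SD, n = 3). In MUT, CACNA1B held 5.10% ± 0.309 and CACNA1G 4.90% ± 0.479, beside 1.77% ± 0.139 and 1.51% ± 0.0604 in WT. The sum was 397 ± 42.2 normalized counts per kb in WT, 453 ± 10.4 in MUT and 242 ± 36.4 in SWP.

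Of the alpha2delta subunits, 3 were tested and 2 were higher in MUT than in WT. CACNA2D2, which like CACNA2D1 binds gabapentin, had 583, 863 and 641 in WT, 1154, 1246 and 1299 in MUT and 556, 820.2 and 913 in SWP. It was higher in MUT, at 0.84 ± 0.18 (adjusted p = 0.00397) against WT and 0.72 ± 0.18 (adjusted p = 0.00939) against SWP, and it shares 9.31% of its exon bases with the lncRNA ENSG00000271858 on the other strand, which had 33.0, 54.4 and 27.1 normalized counts in WT, MUT and SWP. CACNA2D3 had 220.4, 350.2 and 298 in WT, 479.8, 506 and 527 in MUT and 496, 567 and 563 in SWP. Both edited lines stood above WT, at 0.82 ± 0.15 (adjusted p = 0.00143) in MUT and 0.92 ± 0.15 (adjusted p = 0.00281) in SWP, and MUT against SWP gave -0.10 ± 0.15 (adjusted p = 0.628). CACNA2D1 had 2124 to 2619 in WT, 2125 to 2302 in MUT and 2065 to 2129 in SWP and was not called.

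Of the cytoplasmic beta subunits, 1 of 4 was called in MUT against WT and none in the other comparisons. CACNB2, the main beta subunit of the heart, had 327, 429 and 352 in WT, 232, 272 and 252 in MUT and 260.1, 393 and 398 in SWP. It was lower in MUT than in WT, at -0.54 ± 0.17 (adjusted p = 0.0271). That call was lost with libraries scaled to equal totals (adjusted p = 0.0613) and without MUT replicate 1, MUT replicate 3, WT replicate 2 or WT replicate 3 (adjusted p = 0.0941, 0.0681, 0.102 and 0.0579). For the other 61 tested genes within 5 Mb of CACNB2, the median in this comparison was -0.34 (log2). The antisense lncRNA ENSG00000240291, which shares 6.62% of the exon bases of CACNB2, had 172 normalized counts in WT and 73.5 in MUT, and its part in the count of CACNB2 was not tested. MUT against SWP was not called by limma, at -0.45 ± 0.17 (adjusted p = 0.0585), but was called by edgeR (adjusted p = 0.0349) and DESeq2 (adjusted p = 0.0137) on recovered reads and by limma without SWP replicate 1 (adjusted p = 0.00244). CACNB1, the skeletal muscle form, CACNB3 and CACNB4 had WT means of 257 ± 18.5, 971 ± 65.5 and 1163 ± 273 (SD, n = 3), with log2 fold changes in MUT of -0.11, 0.15 and -0.09.

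Of the 8 gamma family genes, 3 were tested. CACNG4 was higher in MUT than in WT and CACNG8 lower. CACNG5 was called higher, but its mean over WT and SWP was 9.04, so it passed the filter only with MUT. CACNG4, an AMPA receptor partner, had 29.7, 38.2 and 29.8 in WT, 151, 191 and 183 in MUT and 33.2, 53.5 and 45.0 in SWP. Its MUT libraries lay far above the rest, at 2.39 ± 0.21 (adjusted p = 1.02e-05) against WT and 1.99 ± 0.21 (adjusted p = 3e-05) against SWP. CACNG5, its neighbour on chromosome 17, had 10.3, 15.7 and 9.63 in WT, 38.8, 36.9 and 27.3 in MUT and 5.73, 3.71 and 9.23 in SWP. Its MUT libraries were above all others, with fitted log2 fold changes of 1.47 ± 0.34 against WT and 2.35 ± 0.34 against SWP. CACNG8 (ENSG00000142408, chr19:53962937-53990215 on the plus strand), an AMPA receptor partner of the hippocampus, had 544, 619.6 and 563 in WT, 330.0, 359.7 and 441 in MUT and 131, 115 and 175 in SWP. The order was WT, MUT, SWP without overlap. Its log2 fold change was -0.62 ± 0.16 (adjusted p = 0.0114) in MUT against WT, -2.05 ± 0.16 (adjusted p = 1.6e-05) in SWP against WT and 1.43 ± 0.16 (adjusted p = 5.49e-05) in MUT against SWP. Without MUT replicate 1, MUT against WT was not called (adjusted p = 0.0536).

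The other 13 members stayed under the minimum. SCN10A had no read in any library, and 7 genes, SCN10A included, had at most 3 reads in every library: SCN10A, SCN1A, SCN7A, CACNA1F, CACNG1, CACNG2 and CACNG3. CACNA1E, the R-type channel, missed the minimum narrowly, with 0, 3.37 and 0 in WT, 25.9, 28.2 and 30.2 in MUT and 0, 0 and 2.31 in SWP. Its 88 reads in MUT and 3 in WT, each divided by the summed size factors of the line, gave a ratio of 27.2. The 95% exact interval was 9.00 to 134, for counting error only. Against the 2 reads in SWP the ratio was 43.3 (11.6 to 363). Ratios of the mean normalized counts were 25.0 against WT and 36.5 against SWP. CACNA1S, the channel of skeletal muscle, had 5.13, 4.49 and 4.81 in WT, 15.7, 15.6 and 13.6 in MUT and 1.1, 1.5 and 5.8 in SWP. CACNG7 had 2.05, 1.12 and 2.89 in WT, 10.2, 8.75 and 6.82 in MUT and 2.29, 2.23 and 0 in SWP. With no filter on low values, limma called these 3 higher in MUT than in WT (adjusted p = 0.000392, 0.0336 and 0.0274). CACNG1 was also called (adjusted p = 0.0371), with 0 reads in WT and 5 in all of MUT. No member under the minimum was called in SWP against WT. CACNA1A, the P/Q-type channel, had 1.03 to 1.93 in WT and 1.85 to 3.90 in MUT. CACNA2D4 had 2.89 to 9.23 in WT and 5.55 to 15.6 in MUT, and CACNG6 had 11.3 to 13.5 and 7.40 to 9.74, neither called without the filter.

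Many of these genes sit in clusters left by gene duplication. The SCN3A, SCN2A, SCN1A, SCN9A and SCN7A cluster spans 1.52 Mb of chromosome 2 (hg38, chr2:165087526-166611482). All 3 of its tested genes were higher in MUT than in WT, while SCN1A and SCN7A stayed at no more than 3 reads. The chromosome 17 cluster (chr17:66835117-67056797) held CACNG5 and CACNG4, whose MUT libraries lay above all others, beside CACNG1. On chromosome 19 (chr19:53909278-54012666), CACNG8 was lower in both edited lines, while the adjacent CACNG7 was called higher in MUT without the filter. Other tested genes within 5 Mb of each tested member had median log2 fold changes of -0.34 to 0.15 in MUT against WT and of -0.25 to 0.22 in SWP against WT.

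A list of 43 channel partners, chosen with earlier results of these data known, held 38 tested genes. STAC, NALF1 and UNC80 passed the minimum through MUT alone, so that a tested difference was built into the filter, and their fitted folds depend on the pseudocount. Without these, 10 of 35 were higher and 4 lower in MUT against WT, with a median log2 fold change of 0.23, beside 13 of 38 higher and a median of 0.25 with them. Over all genes tested, 11.3% were called higher and 10.1% lower in MUT against WT, so the count of lower partners was near the background share. STAC, an adaptor that slows inactivation of L-type channels, had 0, 1.12 and 2.89 in WT, 98.9, 79.7 and 87.7 in MUT and 0, 0.743 and 0 in SWP. NALF1 and UNC80, subunits of the sodium leak channel complex, were also near 0 outside MUT. NALF1 had 0, 2.24 and 0 in WT, 49.9, 46.7 and 42.9 in MUT and 2.29, 0 and 0 in SWP. UNC80 had 3.08, 1.12 and 0 in WT, 49.0, 69.0 and 63.3 in MUT and 0, 0.743 and 2.31 in SWP. NALCN, the pore of that complex, and UNC79 are on the list as well, and are named here by a choice made after the values were seen. NALCN had 29.7, 52.8 and 51.0 in WT, 218, 235 and 283 in MUT and 21.8, 43.8 and 47.3 in SWP, at 2.47 ± 0.30 (adjusted p = 0.0001) in MUT against WT, and UNC79 was not called, at 0.24 ± 0.26 (adjusted p = 0.507). NALF2, on the same list, went the other way, with means of 2202 ± 354 in WT, 1745 ± 157 in MUT and 2575 ± 328 in SWP (SD, n = 3). MUT against WT was not called for NALF2, at -0.33 ± 0.13 (adjusted p = 0.06). MUT against SWP was called lower, at -0.56 ± 0.13 (adjusted p = 0.00492).

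FGF12, a cytoplasmic factor that binds the tail of sodium channels, had 53.3, 64.0 and 66.4 in WT, 339, 398 and 389 in MUT and 19.5, 26.7 and 18.5 in SWP. It went opposite ways from WT, at 2.60 ± 0.18 (adjusted p = 2.45e-06) in MUT and -1.48 ± 0.18 (adjusted p = 0.000404) in SWP, and MUT against SWP gave 4.07 ± 0.18 (adjusted p = 5.76e-08). The 4 partners lower in MUT than in WT were STAC3, the skeletal muscle adaptor, at -0.87 ± 0.15 (adjusted p = 0.000835), STAC2 at -0.79 ± 0.20 (adjusted p = 0.00905), and the ankyrins ANK2 and ANK3, which anchor channels in the membrane, at -0.68 ± 0.16 (adjusted p = 0.00621) and -0.55 ± 0.14 (adjusted p = 0.0103). In SWP against WT, no partner was higher and 3 were lower, FGF12, FGF11 at -1.18 ± 0.23 (adjusted p = 0.00733) and STAC2 at -1.08 ± 0.20 (adjusted p = 0.00561). The shares over all genes tested were 2.15% higher and 2.98% lower. In MUT against SWP, 11 of the 35 partners without STAC, NALF1 and UNC80 were higher and 3 lower, beside 14 higher with those genes. The 3 lower were STAC3 at -0.59 ± 0.15 (adjusted p = 0.00843), ANK2 at -0.58 ± 0.16 (adjusted p = 0.0152) and NALF2. Over all genes tested, 12.3% were called higher and 8.31% lower in MUT against SWP.

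Markers of other cell types, from lists also chosen with earlier results of these data known, were read in the same fit. Of 13 neuronal markers, 9 were tested. SNAP25 passed the minimum through MUT alone, and of the other 8, 6 were higher and 1 lower in MUT against WT, beside 11.3% and 10.1% of all genes tested. The 6 were TUBB3, MAP2, SYN1, NEFL, GAP43 and RBFOX3, which encode cytoskeletal, synaptic, growth cone and splicing proteins of neurons. INA was not called there, with means of 1043 ± 133 in WT, 1159 ± 88.3 in MUT and 2864 ± 685 in SWP. In SWP against WT, 1 of these 8 was higher (INA, 1.44 ± 0.15, adjusted p = 0.000127) and 1 lower (NEFL), beside 2.15% and 2.98% of all genes. In MUT against SWP, 5 of the 8 were higher and 1 lower (INA), beside 12.3% and 8.31%. MAP2 had means of 51.9 ± 3.83 in WT, 217 ± 31.6 in MUT and 44.2 ± 5.66 in SWP (SD, n = 3). SYN1 had means of 26.9 ± 1.2 in WT, 121 ± 14.0 in MUT and 24.6 ± 9.16 in SWP. TUBB3 had means of 37.8 ± 8.92 in WT, 95.3 ± 18.0 in MUT and 31.5 ± 5.07 in SWP. RBFOX3 had means of 48.8 ± 14.1 in WT, 114 ± 1.51 in MUT and 50.5 ± 6.84 in SWP. SNAP25 had means of 5.18 ± 0.403 in WT, 175 ± 16.4 in MUT and 2.74 ± 3.00 in SWP. The other 4 markers stayed under the minimum: ELAVL3, ELAVL4, STMN2 and DCX, with means of at most 4.44 in every line. The summed level of all 13 was 20020 to 21850 normalized counts in WT, 24320 to 25540 in MUT and 14620 to 19520 in SWP. Most of it came from the neurofilament genes NEFL, with 6867 to 7135 in WT and 14388 to 14992 in MUT, and NEFM, the 1 lower gene, with 11447 to 13536 and 7852 to 8615. Of 9 tested kidney epithelial markers, 3 were higher in MUT than in WT (KRT8, PAX2 and LHX1) and none lower. In SWP against WT, none was higher and 1 was lower (KRT8, -1.27 ± 0.12, adjusted p = 4.8e-05). In MUT against SWP, 6 of these 9 were higher (CDH1, KRT8, KRT18, PAX2, LHX1 and WT1) and none lower. A rise in MUT over SWP was thus not particular to the neuronal list. PAX2 had means of 248 ± 65.0 in WT, 394 ± 47.2 in MUT and 230.4 ± 70.9 in SWP. LHX1 had means of 200.2 ± 16.0 in WT, 341 ± 48.3 in MUT and 150.0 ± 34.1 in SWP. WT1 had means of 718 ± 159 in WT, 1001 ± 48.2 in MUT and 599 ± 61.3 in SWP. PAX8 had at most 2 reads in any library. Both tested endocrine and chromaffin markers, CHGA and CHGB, were higher in MUT, with list sums of 94.3 to 114 in WT, 268 to 362 in MUT and 53.5 to 88.2 in SWP, and DBH and INS had no read. None of 5 tested muscle markers was called in MUT against WT, 1 of 3 tested glial markers was lower (GFAP), and no blood marker reached the minimum. The part of these cell type programs in the channel values was not tested.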

How the data were processed

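RNA-seq of HEK293T WT, MUT and SWP (3 libraries each) was analysed, and the other samples of the series were not analysed here. The authors aligned reads of poly(A), strand-specific libraries (hg38, bwa mem, with no splicing of reads over introns), marked duplicates with Picard and counted reads per GENCODE gene. The counting tool and its use of strand are not given in the sources used here. The deposited values are a signal, the read counts of the authors divided by 1 size factor per library. Whole reads were recovered from 100% of the values (within 0.01 read). Reads on junctions may be lost.

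limma 3.58.1 in R 4.3.3 (eBayes with a trend) was run on log2(normalized count + 1), all 9 libraries in one fit, over the 20884 genes with a mean of at least 10, with Benjamini-Hochberg adjustment. This scale understates changes of low genes. Calls required an adjusted p below 0.05 and an absolute log2 fold change over 0.5. The design had no replicate block. Alternatives were pseudocounts of 0.1 and 10, no filter or a minimum of 50, equal totals or upper quartiles, no trend, 2 groups only, the block, edgeR 4.0.16 and DESeq2 1.42.0 on recovered reads, other fold thresholds and leaving out each library. On recovered reads, edgeR called 4554 genes and DESeq2 4412 genes in MUT against WT. On simulated data with 200 changed genes of 20884, limma called 186 of them and 3 others. The simulated libraries were independent, with the same spread setting for every gene and far fewer changed genes than were called here. These rates therefore check the code and need not hold for the real libraries.

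Deviations of same-numbered libraries correlated at 0.555, 0.403 and 0.102 between WT and SWP. They correlated at 0.333, 0.241 and 0.232 between MUT and SWP, and at 0.328, 0.146 and 0.049 between WT and MUT. Between differently numbered libraries, the values were -0.477 to 0.263, -0.246 to 0.024 and -0.238 to 0.154 in the same order. In WT against SWP and WT against MUT, some of these passed the value of the libraries numbered 3. Whether same-numbered libraries are paired is therefore not settled by these values. The main fit uses no pairing, so its p-values and calls leave any pairing out. With the block, 1464 genes were called in SWP against WT and 4773 in MUT against SWP, beside 1072 and 4309 in the main fit. For 3 against 3 libraries, an exact permutation test cannot go below 0.1, and none is given. Positions and exon lengths came from GENCODE release 44 on hg38, which matched 57754 of the 58336 identifiers. Members and lists (partners, and kidney, neuronal, muscle, glial, endocrine and blood markers) were chosen with earlier results of these data known. Of the 40 genes the rule finds, 2 are not reported here and enter no count of members. Every other member is named. Those called in a comparison have the value of every library, and of the partners the 4 largest rises and falls are named. Figures used matplotlib 3.10.9 in Python 3.11.15.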

Additional observations from a re-analysis of the deposited data

Results flagged for a closer look

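SCN2B was called higher in MUT than in WT and lower in SWP than in WT, with all MUT libraries above and all SWP libraries below those of WT. The difference between the edited lines was tested directly, as a log2 fold change of 2.98 ± 0.24 in MUT against SWP (limma, adjusted p = 3.96e-06).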

How the results depend on the processing

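The count of 14 channel genes higher in MUT than in WT was 14 without each library in turn and 10 at a log2 fold threshold of 1. The 2 lower genes became 1 with equal totals and 0 at that threshold, and ranged from 0 to 2 when each library was left out. In MUT against SWP, the 1 lower gene became 2 with edgeR and with DESeq2 on recovered reads and 0 at a threshold of 1, and ranged from 0 to 2 with libraries left out. The median log2 fold change at a minimum mean of 50 was 0.55 in MUT against WT and 0.50 in MUT against SWP. With libraries left out it was 0.73 to 0.97 in MUT against WT, 0.67 to 1.10 in MUT against SWP and -0.28 to -0.089 in SWP against WT. Over all genes, dropping the fold threshold gave 8021, 2083 and 7944 calls in MUT against WT, SWP against WT and MUT against SWP, and a threshold of 1 gave 1648, 505 and 1723. With the replicate block, 4970, 1464 and 4773 genes were called, beside 4476, 1072 and 4309 without it, and among channel genes the block changed the call of CACNA1B in SWP against WT and no other call. At a threshold of 1, the called genes lost were SCN4B, CACNA1C, CACNA2D2, CACNA2D3, CACNB2 and CACNG8 in MUT against WT, CACNA1H and CACNA2D3 in SWP against WT, and SCN9A, CACNA1H and CACNA2D2 in MUT against SWP. With the fold threshold kept, calls of single tested genes that changed under an alternative are given with their comparison, and no call reversed. Leaving out CACNG5, an alternative chosen after seeing the data, moved no count by more than 1 gene and gave medians of 0.83, -0.18 and 0.84 in MUT against WT, SWP against WT and MUT against SWP. Depth limits members with few reads, such as CACNA1E and CACNG7, and 3 libraries per line limit every estimate of spread.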
